A study of Mus musculus with 8 samples.

Results

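The TGF-beta and BMP pathway genes described here are 47 mouse genes for ligands of the TGF-beta, activin and BMP families, their latency carriers, receptors, Smad transducers, antagonists and target genes, read in mammary tumours with and without FGFR1. They were chosen by name, and their probes were found by matching the RefSeq accession of each non-control probe to the gene. All 47 of them had a probe, out of 21368 genes that could be named on the array, with 61 probes in all. Of these, 39 genes had a probe well above background in the tumour channel on at least 4 of the 8 arrays and were tested, against 16757 genes tested in all, and 26 of the 39 were above background on all 8 arrays. The other 8 (Inha, Inhba, Gdf10, Smad6, Smad9, Grem1, Bambi and Id4) are described without a test.

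TGF-beta family ligands are secreted dimers that bind a type II receptor, which then phosphorylates a type I receptor. TGF-beta and activin receptors phosphorylate SMAD2 and SMAD3, BMP receptors phosphorylate SMAD1, SMAD5 and SMAD9, and both sets enter the nucleus with SMAD4. TGF-beta is stored in the extracellular matrix in a latent form bound to LTBP proteins and is a known inducer of collagen and fibronectin genes in fibroblasts, while in mammary epithelium it is known to restrain ductal growth.

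Tumour RNA came from 4 samples labelled FGFR1 KO, which the series describes as K19-tva mice carrying fgfr1loxP/loxP, and from 4 samples labelled WT, which it describes as control K19-tva mice. Both groups carry the K19-tva transgene, named for the keratin 19 promoter and an avian virus receptor, and both are given as FVB, the floxed allele having been moved from ICR by backcrossing. The labels name neither the agent that started the tumours, nor the way the floxed gene was recombined, nor the age of the animals. Each sample was read on 1 array against a universal human reference RNA, so each value is a log2 ratio of tumour over that reference. A ratio cannot be set against the ratio of another probe, because each probe has its own reference signal. Since no label ties the 8 samples to separate mice, a p-value here speaks only of the spread between them.

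The arrays differed in ways that touch these genes. The share of spots with tumour signal well above background was 68.9% to 83.9% on FGFR1 KO arrays, against 43.9% to 69.2% on WT arrays. For the reference signal, the share was 89.4% to 91.4% on FGFR1 KO arrays, against 69.5% to 82.0% on WT arrays. The 4 FGFR1 KO arrays filled row 1 of the single slide and the 4 WT arrays row 2, so an effect of the row cannot be told apart from one of genotype. WT 2 was unlike the rest: averaged over its pairs, it correlated at 0.379 with the others across probes, and every other array at 0.597 to 0.713. Its median over 13 mammary epithelium markers was -0.46 and over 6 milk protein genes 0.26, while its median over 8 skeletal muscle markers was 8.77. WT 1 had a muscle median of 2.14, and every other array lay between -0.19 and 0.41. FGFR1 KO tumours had epithelium medians of 1.18 to 2.93, and WT 1, WT 3 and WT 4 had 1.56 to 2.56. Negative controls were bright in spots of Row 97 to 336 and Col 83 to 164, which hold 31.3% of the spots, on WT 1 (35.5 red units above local background) and WT 3 (41), against 0 to 6 on the FGFR1 KO arrays and 6 and 6.25 on the remaining WT arrays. Of the 39 tested pathway genes, 14 had their probe wholly in this bright part, 3 partly and 22 outside it. The targeted gene, Fgfr1, read 0.31 ± 0.11 in FGFR1 KO and 0.31 ± 0.06 in WT tumours (SD, n = 4 each) with its brightest probe, and 0 of its 3 probes passed the limma test (adjusted p from 0.841 to 1.0). None passed at an unadjusted p under 0.05 either. Whether the probes lie inside or outside the floxed exons could not be told, so they do not check the labels.

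The comparison of FGFR1 KO with WT tumours asked which pathway genes differed with genotype. The lowest values relative to WT were those of Tgfbi, a matrix protein gene induced by TGF-beta, at -1.21 on the log2 scale, and of Ltbp4, a carrier of latent TGF-beta, at -1.15. Id1, a BMP target gene, followed at -0.84 with groups that overlapped, and then Bmp2, a BMP ligand, at -0.62 with no overlap between the groups. With the brightest probe of each gene, the receptor or Smad gene farthest from 0 was Tgfbr2 at -0.34, while its second probe differed by only -0.12. Of the 39 genes, 0 passed limma's test at an adjusted p of 0.05 in either direction, as did 0.0% of all genes tested, and 4 of all 39782 probes tested (0.0101%) passed.

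**Figure D1:**
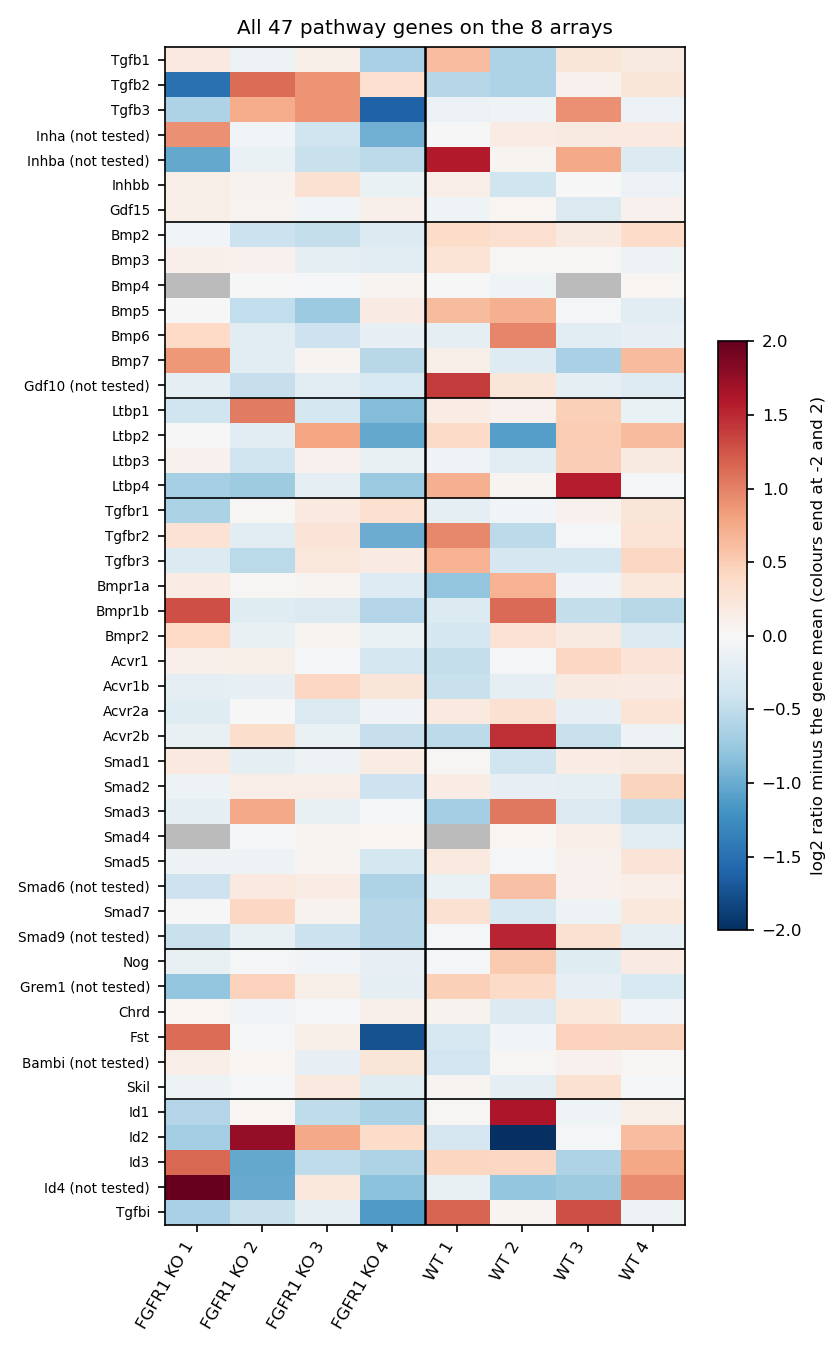
Values of the 47 pathway genes (rows, grouped by role from ligands to target genes) on the 4 FGFR1 KO arrays (left) and the 4 WT arrays (right), as log2 tumour over reference minus the gene's mean. Grey cells have no value. Tgfbi and Ltbp4 are low on the FGFR1 KO arrays and highest on WT 3, and Id1 is highest and Id2 lowest on WT 2.

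At an unadjusted p under 0.05, 3 of the 39 pathway genes were lower (Tgfbi, Ltbp4 and Bmp2), against 4.78% of all genes tested, and 0 were higher, against 3.1%. The same 3 genes were the ones whose FGFR1 KO arrays all lay below all WT arrays, against 2.5% of all genes, and 0 lay wholly above, against 1.85%. In all, 26 of the 39 differences were below 0, against 50.3% of all genes, and their median was -0.13, against -0.00 over all genes tested and -1.20 over 30 matrix genes. The median of the pathway genes thus lay much nearer that of all genes than that of the matrix genes. Leaving out 1 array moved it to between -0.16 and -0.01, the value nearest 0 being the one without FGFR1 KO 4. Without WT 2, the median was -0.12 and the same 3 genes had an unadjusted p under 0.05 and no overlap. Smad5 then joined them in lying wholly below WT, and Smad3 lay wholly above it.

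**Figure D2:**
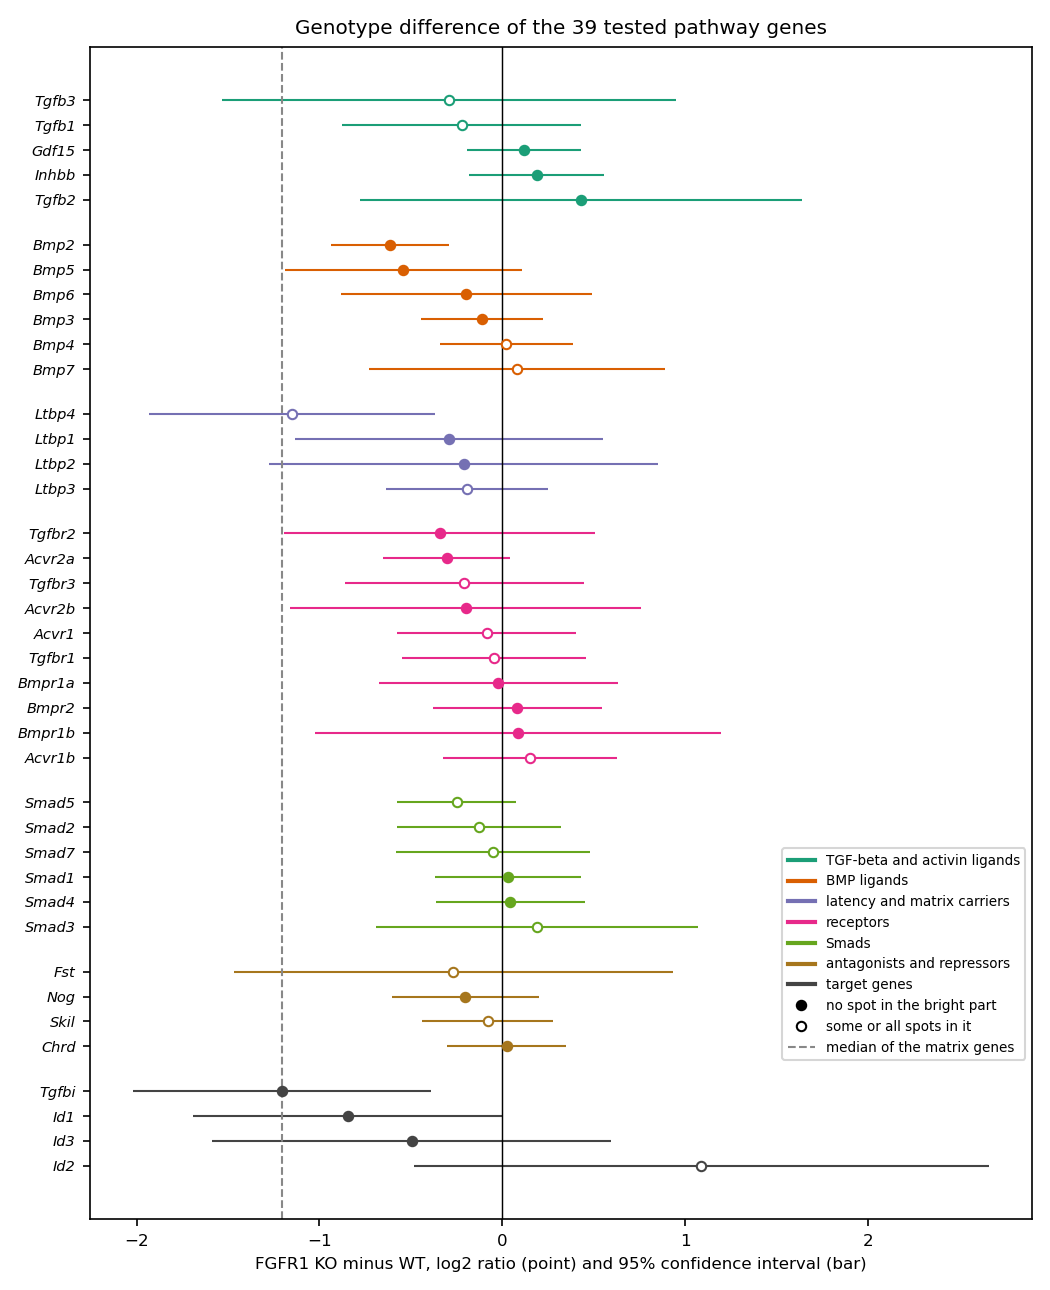
Difference between FGFR1 KO and WT tumours for the 39 tested pathway genes, on the log2 scale, with 95% confidence intervals from limma. Genes are grouped by role, open points have some or all of their spots in the bright part of the array, and the dashed line is the median of the matrix genes at -1.20. The intervals of Bmp2, Ltbp4 and Tgfbi lie below 0.

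Among the TGF-beta and activin ligands, 5 of 7 genes were tested, 2 below 0 and 3 above, with a median of 0.12 and 0 called. Tgfb1, the most studied TGF-beta ligand, read 0.94, 0.65, 0.87 and 0.10 on FGFR1 KO 1 to 4, against 1.37, 0.14, 1.00 and 0.94 on WT 1 to 4. FGFR1 KO 4 and WT 2 were the low arrays, and the groups overlapped. The difference was -0.22 ± 0.29 (SE), with a 95% confidence interval from -0.87 to 0.43 (limma adjusted p = 0.834), and -0.46 once WT 2 was left out (adjusted p = 0.610). It was -0.045 without FGFR1 KO 4 and -0.053 without WT 1. Inhbb, which encodes the beta B subunit of activins and inhibins, read 0.40, 0.35, 0.58 and 0.15 in FGFR1 KO tumours, against 0.40, -0.12, 0.28 and 0.16 in WT tumours. Only WT 2 stood below the FGFR1 KO range. Its difference was 0.19 ± 0.16 (SE, limma adjusted p = 0.757), and 0.09 without WT 2.

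Gdf15, a distant family member known as a stress-induced ligand, read 0.18, 0.12, 0.01 and 0.16 in FGFR1 KO tumours, against -0.02, 0.11, -0.24 and 0.15 in WT tumours. WT 3 was lowest and WT 1 next, and the groups overlapped (0.12 ± 0.14 SE, limma adjusted p = 0.816). Tgfb2, another TGF-beta ligand, read -1.13, 1.47, 1.26 and 0.69 in FGFR1 KO tumours, against -0.22, -0.26, 0.45 and 0.61 in WT tumours. With this probe, the brightest, FGFR1 KO 1 alone was below the WT range and the other 3 FGFR1 KO arrays were above it. With all arrays the difference was 0.43 ± 0.53 (SE, limma adjusted p = 0.828), but it was 1.00 without FGFR1 KO 1 and 0.13 without FGFR1 KO 2. A second Tgfb2 probe, in the bright part, differed by 0.30. There FGFR1 KO 1 was again below the WT range and FGFR1 KO 2 and FGFR1 KO 3 above it, but FGFR1 KO 4 lay within it at 0.85. Tgfb3, the remaining TGF-beta ligand, had a difference of -0.29 ± 0.55 (SE), with FGFR1 KO 4 at -2.50 and WT 3 at 0.04 as its extremes, and the sign turned without FGFR1 KO 4, where it was 0.20. Inha, the inhibin alpha subunit, was well above background on 1 FGFR1 KO array and no WT array. Inhba, the activin beta A subunit, was well above background on 1 WT array and no FGFR1 KO array. Its red signal was lower in FGFR1 KO than in WT tumours by a bound of 2.02-fold, set by the dimmest signal well above background. Only that 1 WT array was measured, and the spot of Inhba lay in the bright part. Such bounds compare the red channel after loess and A-quantile normalization and are open to dye bias, since no dyes were swapped. Their brighter side is the mean of a whole group, with arrays not above background included, so they are not firm minimums.

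Of the 7 BMP ligands, 6 were tested, 4 below 0 and 2 above, with a median of -0.16. Bmp2 (probe A_55_P2041961) read 0.67, 0.30, 0.25 and 0.44 in FGFR1 KO tumours, against 1.09, 1.04, 0.89 and 1.09 in WT tumours. All 4 FGFR1 KO arrays lay below all 4 WT arrays. The means were 0.41 ± 0.19 and 1.03 ± 0.09 (SD, n = 4 each), a 1.53-fold lower ratio in FGFR1 KO tumours, and the difference was -0.62 ± 0.14 (SE). Its unadjusted p was 0.00196 and its adjusted p 0.298 (limma), and the exact permutation p was 0.0286, the smallest that 4 against 4 arrays can give (two-sided). The probe was well above background on only 2 FGFR1 KO and 2 WT arrays, and its spot lay outside the bright part. Without WT 2 the difference was -0.61. It ranged from -0.30 with arrays centred on their median to -1.33 with the red processed signal alone. With arrays centred on their median, Bmp2 no longer had an unadjusted p under 0.05 and its groups overlapped, and they overlapped with the scanner's log ratio too.

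Bmp5 read 0.12, -0.36, -0.62 and 0.30 in FGFR1 KO tumours, against 0.76, 0.85, 0.10 and -0.10 in WT tumours. WT 1 and WT 2 were above every FGFR1 KO array, whereas WT 3 and WT 4 lay within the FGFR1 KO range. The difference of -0.54 ± 0.29 (SE, limma adjusted p = 0.641) shrank to -0.14 when WT 1 and WT 2 were both left out. Bmp3, a BMP family member known to oppose the others, Bmp4, Bmp6 and Bmp7 had differences from -0.20 to 0.08. Bmp6 owed its sign to WT 2, which read 1.07, and its difference was 0.10 without that array. A second Bmp4 probe was well above background on 1 WT array and no FGFR1 KO array, and its spot also lay in the bright part. Its red signal was lower in FGFR1 KO tumours by a bound of 2.18-fold, which is not a firm minimum. By ratio, WT 2 at -0.11 lay within the FGFR1 KO range of -0.36 to -0.06. Gdf10, also called BMP3B, did not exceed background on any of the 8 arrays.

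All 4 latency and matrix carriers were tested, and all 4 differences were below 0, with a median of -0.25. Ltbp4 encodes a latent TGF-beta binding protein that is also known to assist elastic fibre assembly. Its probe A_51_P403536 read -0.42, -0.48, 0.06 and -0.50 in FGFR1 KO tumours, against 0.95, 0.29, 1.81 and 0.21 in WT tumours. The groups did not overlap, although FGFR1 KO 3 came close to WT 4, and WT 3 was the highest array. Means were -0.33 ± 0.26 in FGFR1 KO and 0.82 ± 0.74 in WT tumours (SD, n = 4 each), so the ratio was 2.22-fold lower in FGFR1 KO tumours. The difference was -1.15 ± 0.34 (SE), with a 95% confidence interval from -1.93 to -0.37, an adjusted p of 0.440 (limma) and an exact permutation p of 0.0286. It was -1.32 without WT 2 and ranged from -1.35 to -0.82 over the arrays left out in turn. The groups overlapped with the scanner's log ratio, with red alone, with median centring and with the mean of its 2 probes. The second Ltbp4 probe differed by -1.25, and it read 1.18 and 1.13 on WT 1 and WT 2 but -0.97 and -1.72 on WT 3 and WT 4, within the FGFR1 KO range or below it. Both probes lay in the bright part, where 5.4% of genes lay wholly below WT, against 1.05% outside it, and where 10.4% of genes were lower at an unadjusted p under 0.05, against 2.02% outside it. The part of that signal in the result was not tested.

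The first 2 promoter windows of Ltbp4 are shown because it and Tgfbi had the lowest differences of the 39 genes, so that its letters can be set beside those of Tgfbi. Each window runs from 250 bases before to 50 after a RefSeq transcript start in GRCm38.p6, and capitals mark matches to the Smad-binding motifs CAGAC, GTCTAGAC and GGCGCC on either strand. The first window, at chr7:27337563-27337862 on the minus strand, held none of the 3 motifs, and the second, at chr7:27333614-27333913 on the minus strand, held 1 GGCGCC.
Ltbp4 first start: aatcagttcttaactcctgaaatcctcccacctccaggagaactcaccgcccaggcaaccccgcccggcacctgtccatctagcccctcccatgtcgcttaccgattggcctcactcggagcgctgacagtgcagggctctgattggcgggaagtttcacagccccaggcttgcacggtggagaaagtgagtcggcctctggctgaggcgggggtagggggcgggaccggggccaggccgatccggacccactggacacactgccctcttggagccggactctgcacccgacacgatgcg
Ltbp4 second start: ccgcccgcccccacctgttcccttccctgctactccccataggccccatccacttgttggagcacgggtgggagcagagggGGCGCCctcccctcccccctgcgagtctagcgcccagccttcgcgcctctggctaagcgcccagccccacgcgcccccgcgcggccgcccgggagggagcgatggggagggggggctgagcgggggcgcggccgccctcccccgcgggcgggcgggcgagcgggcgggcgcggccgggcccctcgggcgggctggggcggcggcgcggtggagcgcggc

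Ltbp3, a carrier of latent TGF-beta like Ltbp4, read 0.80, 0.32, 0.81 and 0.57 in FGFR1 KO tumours, against 0.66, 0.50, 1.21 and 0.91 in WT tumours. WT 3 and WT 4 were above the FGFR1 KO range and WT 1 and WT 2 within it. The difference was -0.19 ± 0.20 (SE, limma adjusted p = 0.789) with a probe in the bright part, while a second probe outside it differed by 0.42, so the 2 probes disagreed in sign. Ltbp1, a main carrier of latent TGF-beta in the matrix, and Ltbp2, a related microfibril protein that does not bind latent TGF-beta, differed by -0.29 ± 0.37 and -0.21 ± 0.47 (SE). Ltbp2 read -0.98 on WT 2 and 0.52 to 0.77 on the other WT arrays, and its difference was -0.62 without WT 2 (limma adjusted p = 0.679) and 0.093 without FGFR1 KO 4. That of Ltbp1 was -0.050 without FGFR1 KO 4 and -0.69 without FGFR1 KO 2.

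All 10 receptors were tested, 7 below 0 and 3 above, with a median of -0.07 and 0 called at an unadjusted p under 0.05. Tgfbr2, the type II receptor that binds TGF-beta, read 1.02, 0.51, 0.99 and -0.26 in FGFR1 KO tumours, against 1.71, 0.21, 0.72 and 1.01 in WT tumours. FGFR1 KO 4 was the lowest array and WT 1 the highest, with the others mixed. The difference was -0.34 ± 0.37 (SE, limma adjusted p = 0.803). It was -0.07 without FGFR1 KO 4 and -0.58 without WT 2. Tgfbr1, its type I partner, differed by -0.04 ± 0.22 (SE), and Tgfbr3, the co-receptor betaglycan, by -0.21 ± 0.29 (SE). A second Tgfbr1 probe, outside the bright part, differed by 0.07. A second Tgfbr2 probe, also outside it, differed by -0.12, with FGFR1 KO 2 lowest at -0.28 and WT 1 highest at 0.73.

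Among the activin receptors, Acvr2a, a type II receptor for activins and several BMPs, read -0.04, 0.19, -0.10 and 0.12 in FGFR1 KO tumours, against 0.39, 0.50, 0.03 and 0.46 in WT tumours. WT 3 lay within the FGFR1 KO range and the other 3 WT arrays above it. Its difference was -0.31 ± 0.15 (SE, limma adjusted p = 0.626). This probe was well above background on all 4 FGFR1 KO arrays and on no WT array, so it passed the filter through FGFR1 KO alone, and it allowed no fold bound. Acvr1, Acvr1b and Acvr2b differed by -0.09, 0.15 and -0.20, while a second Acvr1 probe, outside the bright part, differed by 0.17. Acvr2b read 1.87 on WT 2, and its difference was 0.26 without that array.

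Among the BMP receptors, Bmpr1b, a type I receptor, read 1.94, 0.41, 0.37 and 0.07 in FGFR1 KO tumours, against 0.37, 1.79, 0.18 and 0.10 in WT tumours. One array of each group, FGFR1 KO 1 and WT 2, was high, and the other 6 arrays lay between 0.07 and 0.41. Its difference was 0.09 ± 0.49 (SE, limma adjusted p = 0.967), 0.48 without WT 2 and -0.33 without FGFR1 KO 1, and it was well above background on 4 FGFR1 KO arrays and 1 WT array. Bmpr1a, also type I, and Bmpr2, the type II receptor for BMPs, differed by -0.02 ± 0.29 and 0.08 ± 0.20 (SE).

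Of the 8 Smads, 6 were tested, 3 below 0 and 3 above, with a median of -0.01. Smad5, a transducer of BMP signals, read 0.17, 0.17, 0.32 and -0.07 in FGFR1 KO tumours, against 0.47, 0.23, 0.37 and 0.53 in WT tumours. FGFR1 KO 4 was lowest, and only FGFR1 KO 3 and WT 2 crossed between the groups. The difference was -0.25 ± 0.14 (SE), with a 95% confidence interval from -0.57 to 0.07, an adjusted p of 0.663 (limma) and an exact permutation p of 0.0571. Its spot lay in the bright part, and the difference was 0.06 with the scanner's own log ratio.

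Smad2, a transducer of TGF-beta and activin, read -0.20, 0.04, 0.05 and -0.51 in FGFR1 KO tumours, against 0.06, -0.25, -0.27 and 0.35 in WT tumours. The groups overlapped widely (-0.13 ± 0.20 SE, limma adjusted p = 0.867). Smad3, its partner, read 0.03, 0.97, 0.06 and 0.18 in FGFR1 KO tumours, against -0.47, 1.28, -0.07 and -0.26 in WT tumours. WT 2 and FGFR1 KO 2 were the high arrays, and the other WT arrays lay below all FGFR1 KO arrays. The difference was 0.19 ± 0.39 (SE, limma adjusted p = 0.901), and 0.58 without WT 2, where the adjusted p was 0.548. A second Smad3 probe, outside the bright part, differed by 0.33. Smad1, Smad4 and Smad7 differed by 0.03, 0.04 and -0.05, SMAD7 being an inhibitory Smad. Smad4 had values on 3 arrays of each group. Smad6, also inhibitory, was above background on no array. Smad9 was above it on 1 WT array only, with mean red signal 1.75-fold lower in FGFR1 KO tumours and its spot in the bright part. That value is the plain difference of the group means, most of whose arrays were not above background, and not a bound.

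Of the 6 antagonists and repressors, 4 were tested, 3 below 0 and 1 above, with a median of -0.14. Nog, a secreted BMP antagonist, read 0.32, 0.45, 0.43 and 0.31 in FGFR1 KO tumours, against 0.44, 1.00, 0.24 and 0.64 in WT tumours. The difference of -0.20 ± 0.18 (SE, limma adjusted p = 0.758) was -0.06 without WT 2, the highest array. Skil encodes SnoN, a nuclear repressor of Smad complexes that TGF-beta is known to induce. It read 0.29, 0.36, 0.58 and 0.15 in FGFR1 KO tumours, against 0.44, 0.21, 0.69 and 0.36 in WT tumours, with FGFR1 KO 4 lowest and WT 3 highest (-0.08 ± 0.16 SE, limma adjusted p = 0.896). Chrd, a BMP antagonist, differed by 0.02 ± 0.14 (SE). Fst, which traps activin, differed by -0.27 ± 0.53 (SE), with FGFR1 KO 4 at -2.07, and the sign turned without that array, where it was 0.27. Grem1, a BMP antagonist of stromal cells, read -5.06 to -3.80 in FGFR1 KO tumours and -4.57 to -3.79 in WT tumours and was well above background in red on 1 FGFR1 KO array only. Bambi, a decoy receptor, was above background on none.

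Of the 5 target genes, 4 were tested, 3 below 0 and 1 above, with a median of -0.67. Tgfbi (probe A_51_P212754) read 1.29, 1.49, 1.76 and 0.81 in FGFR1 KO tumours, against 3.11, 2.00, 3.22 and 1.84 in WT tumours. All FGFR1 KO arrays were below all WT arrays, although FGFR1 KO 3 and WT 4 were close, and WT 1 and WT 3 stood well above the rest. Means were 1.34 ± 0.40 in FGFR1 KO and 2.54 ± 0.72 in WT tumours (SD, n = 4 each), a 2.31-fold lower ratio in FGFR1 KO tumours. The difference was -1.21 ± 0.36 (SE), with a 95% confidence interval from -2.02 to -0.39, an adjusted p of 0.440 (limma) and an exact permutation p of 0.0286. The probe was well above background on all 8 arrays and its spot lay outside the bright part, where 1.05% of genes lay wholly below WT. The difference was -1.39 without WT 2 and ranged from -1.44 to -0.98 over the arrays left out in turn. In a piece of tumour, fewer cells of a type and less RNA per cell cannot be told apart.

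Fibroblast markers, like Tgfbi and Ltbp4, were lower on the FGFR1 KO arrays than on the WT arrays. Array by array they differed, WT 3 being highest for both genes but having a fibroblast median of -1.12, against -0.49 on WT 1. Of 7 genes listed for fibroblast surface and identity (Pdgfra, Pdgfrb, Thy1, Vim, S100a4, Tcf21 and Ly6a), 6 were tested and all 6 were below 0, 5 of them at an unadjusted p under 0.05 by limma and 0 at an adjusted one. Of the 6, 4 had no overlap between the groups. The median of the 6 was -2.02 to -1.39 on the FGFR1 KO arrays and -1.30 to -0.49 on the WT arrays, with no overlap. Of 10 adipocyte markers, 10 were below 0, 4 of them at an unadjusted p under 0.05 by limma and 0 at an adjusted one, and 2 had no overlap. The median of the 10 was 0.07 to 0.34 on the FGFR1 KO arrays. On the WT arrays it was 2.68 on WT 1 and 3.79 on WT 2, but 0.43 on WT 3 and 0.41 on WT 4, close to the FGFR1 KO arrays. Of 6 macrophage markers, 5 were below 0, 3 of them at an unadjusted p under 0.05 by limma and 0 at an adjusted one, and 2 had no overlap. Their median was -0.03 to 0.37 on the FGFR1 KO arrays and 0.35 to 0.91 on the WT arrays. Over all genes tested, 4.78% were lower at an unadjusted p under 0.05 by limma and 2.5% lay wholly below WT. Also below 0 were 8 of 9 endothelium, 7 of 8 skeletal muscle and 6 of 8 T and B lymphocyte markers. Of mammary epithelium markers 3 of 13 were below 0, and of milk protein genes 0 of 6. The part of these markers in the results for Tgfbi and Ltbp4 was not tested.

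The Tgfbi promoter window is shown for the same reason as that of Ltbp4, and it is the one with the most motif matches of the 2 genes. It lies at chr13:56609336-56609635 on the plus strand and holds CAGAC, as its reverse complement GTCTG, at 2 places and GGCGCC at 1, the second GTCTG ending 3 bases before the GGCGCC, so that no match overlaps another.
Tgfbi start: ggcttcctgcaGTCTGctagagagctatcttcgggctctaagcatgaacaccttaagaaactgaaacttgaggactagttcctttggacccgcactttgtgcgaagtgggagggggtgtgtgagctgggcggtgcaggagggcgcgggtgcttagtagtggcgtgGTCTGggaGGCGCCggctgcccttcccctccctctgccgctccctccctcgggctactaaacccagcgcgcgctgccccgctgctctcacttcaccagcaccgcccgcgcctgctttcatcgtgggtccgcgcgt

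Of the 43 windows found for 34 of the pathway genes, 51.2% held CAGAC, 34.9% held GGCGCC and 2.33% held GTCTAGAC on either strand. Over all 32851 promoter windows the shares were 49.6%, 11.9% and 0.213%. Windows of the same gene were counted separately and can overlap, as 2 of those of Ltbp4 do, so that the same GGCGCC can count more than once. The shares were not adjusted for GC content, which was 63.3% in the Tgfbi window and 64.3% to 81.3% in those of Ltbp4. A match is a description of the letters and not a bound site.

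The Id genes encode inhibitors of helix-loop-helix factors, and Id1 is a direct BMP target in many cell types. Id1 read -2.54, -1.91, -2.47 and -2.59 in FGFR1 KO tumours, against -1.93, -0.33, -2.04 and -1.84 in WT tumours. WT 2 was far above the rest, and FGFR1 KO 2 was the only FGFR1 KO array within the WT range. The difference was -0.84 ± 0.37 (SE, limma adjusted p = 0.592, exact permutation p = 0.0857), and it was -0.44 without WT 2. Id2 read -0.46, 1.99, 0.99 and 0.61 in FGFR1 KO tumours, against -0.10, -2.19, 0.22 and 0.85 in WT tumours. WT 2 and FGFR1 KO 2 were its extremes, and its difference of 1.09 ± 0.69 (SE, limma adjusted p = 0.687) was 0.46 without WT 2. Id3 differed by -0.50 ± 0.48 (SE), with FGFR1 KO 1 at 1.02 and the other FGFR1 KO arrays from -1.16 to -0.63. Id4 was well above background on 2 FGFR1 KO arrays and 1 WT array and was highest on FGFR1 KO 1 at 3.25 and on WT 4 at 1.90. The 4 Id genes thus had no common direction.

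**Figure D3:**
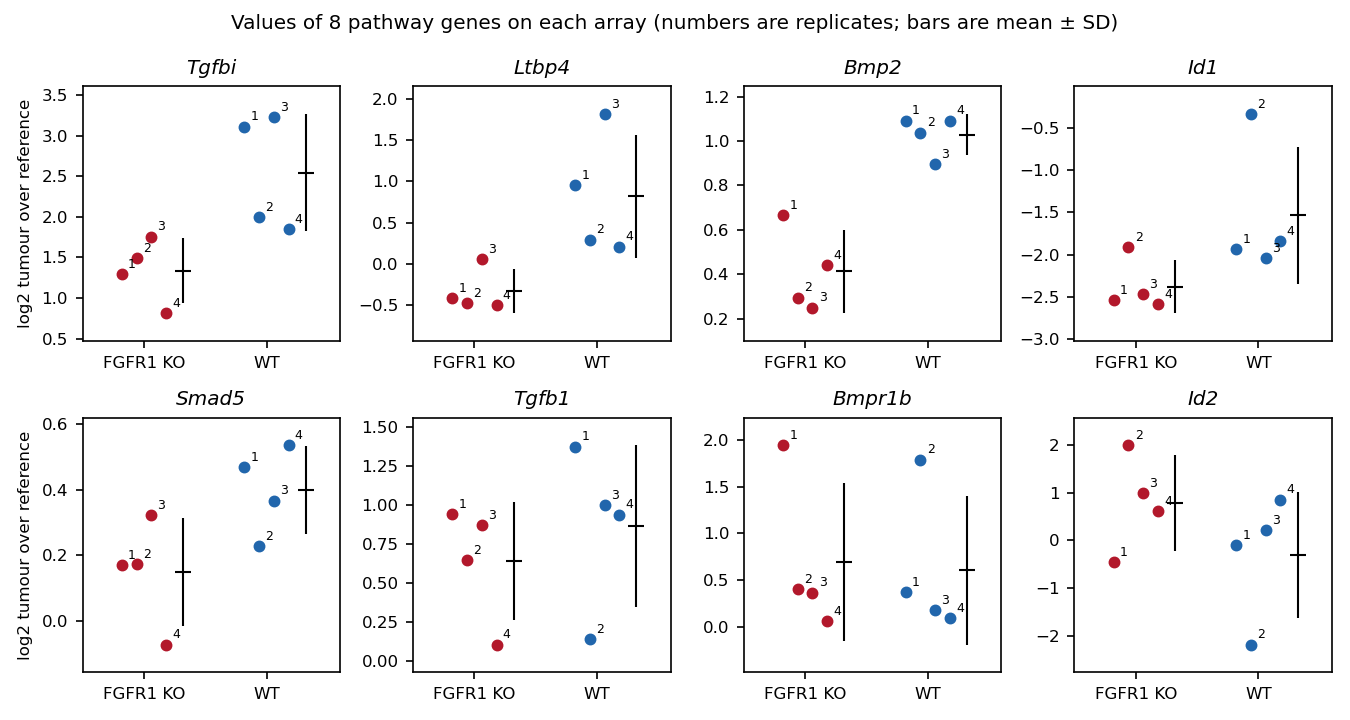
Log2 tumour over reference on each array for 8 pathway genes, with FGFR1 KO left of WT, replicate numbers beside the points and bars at the mean ± SD of 4 arrays. Tgfbi, Ltbp4 and Bmp2 have no overlap between the groups, while Id1, Bmpr1b and Id2 each have WT 2 at an extreme of the WT group.

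It was then asked which pathway genes follow the matrix genes from array to array. A matrix score was taken for each array as the median over the 30 matrix genes of each gene's value minus its mean over arrays. The collagens among them were Col1a1, Col1a2, Col3a1, Col5a1, Col5a2, Col6a1, Col6a2, Col6a3, Col12a1 and Col14a1. The others were Fn1, Sparc, Postn, Lum, Dcn, Bgn, Ogn, Dpt, Fbn1, Fbln1, Fbln2, Mfap4, Mfap5, Eln, Lox, Loxl1, Thbs2, Pcolce, Serpinf1 and Fap. The score was -0.77, -0.45, 0.04 and -1.23 on FGFR1 KO 1 to 4, and 0.87, -0.06, 0.81 and 0.34 on WT 1 to 4. FGFR1 KO 4 was lowest, WT 1 and WT 3 highest, and FGFR1 KO 3 lay above WT 2. All 30 matrix genes were below 0 in the genotype difference, 20 of them at an unadjusted p under 0.05 by limma and 0 at an adjusted one, and 11 of the 30 lay in the bright part. Over all genes tested, 50.3% were below 0 and 4.78% were lower at that unadjusted p. Mfap4 at -0.00011 and Eln at -0.09 were barely below 0, with r of 0.18 and 0.48 with the score.

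A gene was counted as following where its Pearson r and its Spearman rho with the score were both at least 0.7. Of the 37 pathway genes with a value on every array, 4 followed (Tgfbi, Smad5, Ltbp4 and Skil), against 2.63% of 16444 genes outside the matrix list, and 1 (Gdf15) had both at or below -0.7, against 1.64%. The median r of the pathway genes was 0.21, against 0.00 over all genes and 0.82 for matrix genes with the score they make up. After adjustment over all 16444 genes, 0 had an exact permutation p of r under 0.05 (0.0%), with 3.3% below 0.05 unadjusted with a positive r and 2.31% with a negative one. The genes that followed held different roles, 1 each among the carriers, Smads, repressors and target genes, and no ligand or receptor was among them.

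Tgfbi followed the score most closely, with r of 0.943 (exact permutation p = 0.000422, adjusted 0.663) and rho of 0.905 (exact permutation p = 0.00456, adjusted 0.754). Its r was 0.890 without FGFR1 KO 4 and WT 1, the arrays farthest from the median of the score, 0.857 with the group means removed and 0.942 in the analysis without WT 2. It followed under all 20 alternative settings. Its values in the target gene account rank the arrays nearly as the score does, from FGFR1 KO 4 as the lowest to WT 1 and WT 3 as the highest.

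Ltbp4 had r of 0.870 (exact permutation p = 0.00389, adjusted 0.733) and rho of 0.881 (exact permutation p = 0.00724, adjusted 0.754). Its r was 0.894 without the 2 farthest arrays, 0.672 with the group means removed and 0.872 in the analysis without WT 2. With the mean of its 2 probes, r was 0.702 and rho 0.595, short of the threshold. Smad5 had r of 0.893 (exact permutation p = 0.0029, adjusted 0.733) and rho of 0.929 (exact permutation p = 0.00223, adjusted 0.754). Its r was 0.754 without the 2 farthest arrays and 0.780 with the group means removed, but 0.416 with the scanner's own log ratio. Although Smad5 followed the score, its values spanned only -0.07 to 0.53, against 0.81 to 3.22 for Tgfbi.

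Skil, the repressor, had r of 0.726 (exact permutation p = 0.0415, adjusted 0.852) and rho of 0.738 (exact permutation p = 0.0458, adjusted 0.875). It fell short of the threshold under 9 of 20 alternative settings, and its r was 0.669 without the 2 farthest arrays. Tgfb1 was just outside, with r of 0.686 (exact permutation p = 0.0593, adjusted 0.894) and rho of 0.738 (exact permutation p = 0.0458, adjusted 0.875). Its r was 0.232 without the 2 farthest arrays, so its relation rests on FGFR1 KO 4 and WT 1. It was 0.833 in the analysis without WT 2.

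**Figure D4:**
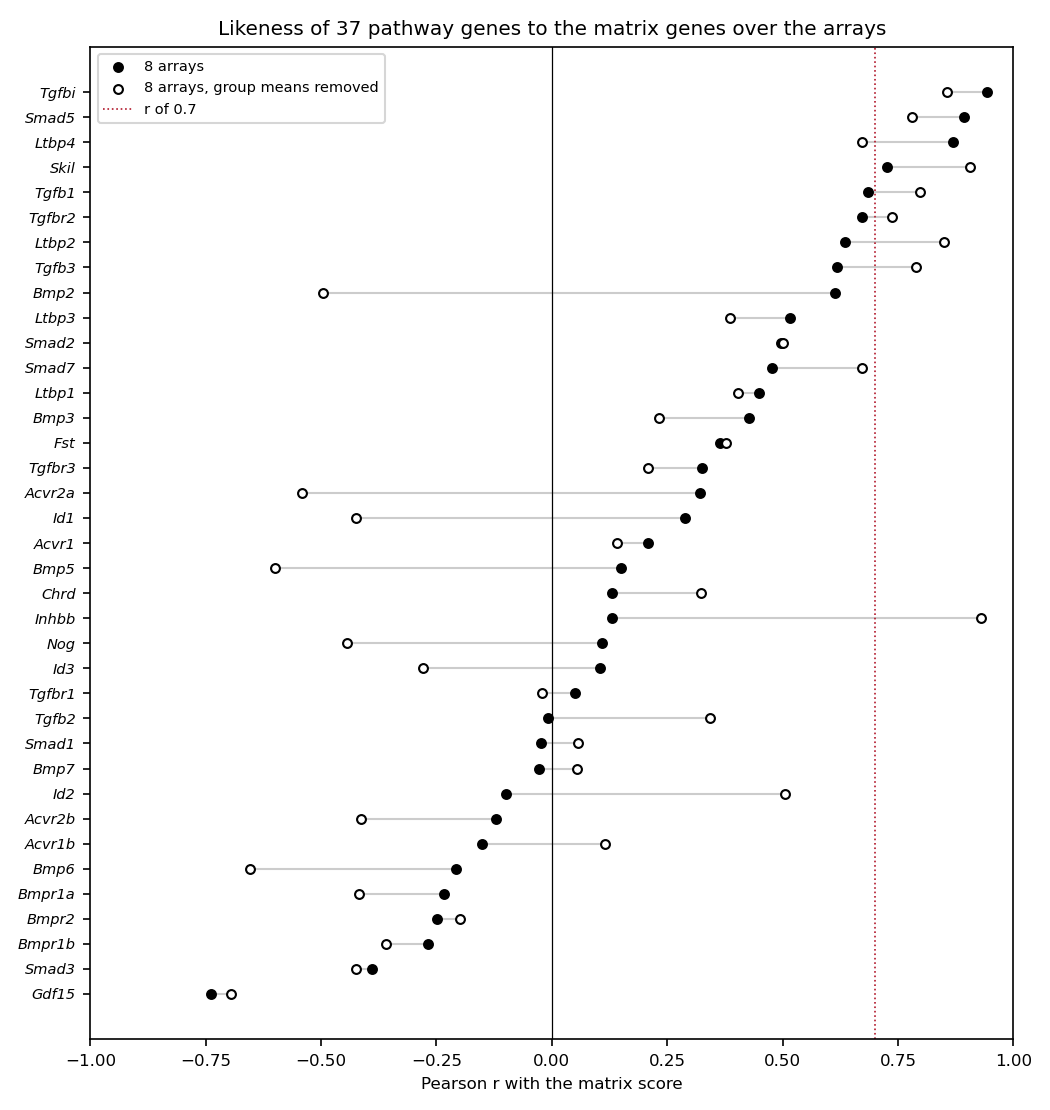
Pearson r over the 8 arrays between each of 37 pathway genes and the matrix score (filled points), and the same with group means removed (open points), with the threshold of 0.7 dotted. Tgfbi, Smad5, Ltbp4 and Skil lie beyond 0.7 with all arrays as they are, and Gdf15 is the lowest at -0.738.

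Gdf15 ran the other way, with r of -0.738 (exact permutation p = 0.0284, adjusted 0.818) and rho of -0.810 (exact permutation p = 0.0218, adjusted 0.841). Its r was -0.772 without the 2 farthest arrays and -0.695 with the group means removed. Its lowest arrays, WT 3 and WT 1, were the ones with the highest matrix score, and its whole range was -0.24 to 0.18. The next lowest were Smad3 at -0.390 and Bmpr1b at -0.267, with exact permutation p-values of r not below 0.05. Bmp2, whose groups did not overlap, had r of 0.613, below the threshold, and -0.495 with the group means removed. Inhbb had r of 0.13 with the arrays as they are and 0.931 with the group means removed. With the group means removed, 5 of the 37 pathway genes followed (Inhbb, Ltbp2, Smad5, Skil and Tgfbi), against 2.8% of all genes.

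Position on the array moved with following. Of genes with a probe in the bright part, 4.39% followed the score, against 1.74% outside it. Of the 4 pathway genes that followed, Smad5 and Ltbp4 lay in the bright part and 4 of the 10 spots of Skil did, while Tgfbi lay outside it. With the bright part left out of the whole analysis, 28 pathway genes had a value on every array and 1 followed, which was Tgfbi at r of 0.926. All spots of Smad5 and Ltbp4 lay in the bright part, so neither had a value there, and the other spots of Skil gave r of 0.591 and rho of 0.738. The part of the bright negative controls in the likeness of Smad5, Ltbp4 and Skil was not tested.

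**Figure D5:**
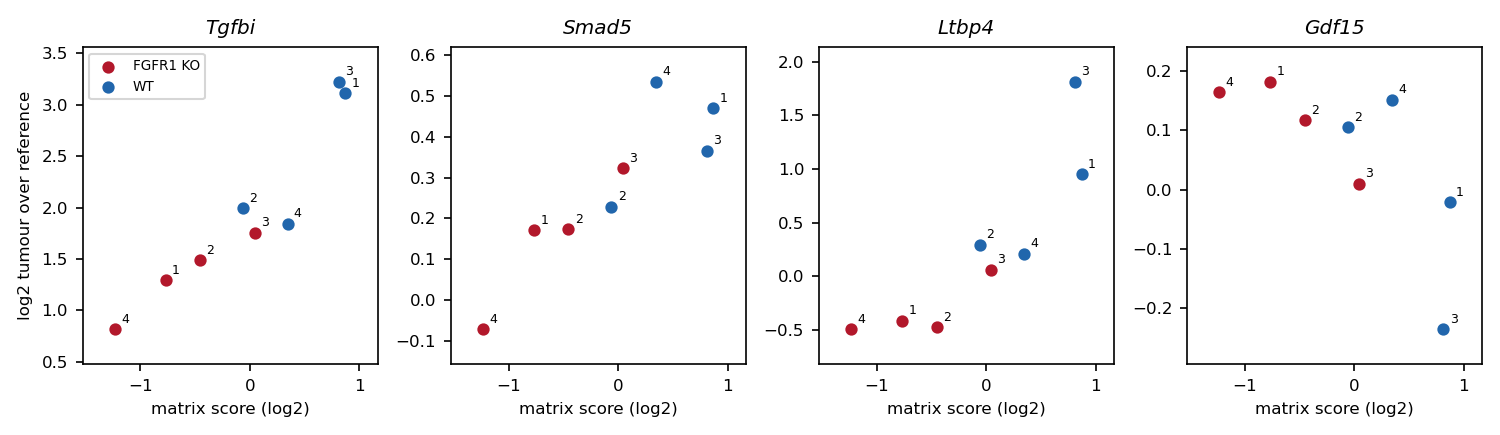
Log2 tumour over reference (vertical) against the matrix score (horizontal) on the 4 FGFR1 KO and 4 WT arrays for Tgfbi, Smad5, Ltbp4 and Gdf15, with replicate numbers beside the points. Tgfbi, Smad5 and Ltbp4 climb with the score from FGFR1 KO 4 at -1.23, and Gdf15 is lowest on WT 3 and WT 1.

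Arrays differed in how often they held a pathway gene's extreme value. FGFR1 KO 4 was the lowest array for 14 of 37 pathway genes, while 13.4% of other genes were lowest there. WT 2, which stood apart over all probes, was the highest or lowest array for 35.1% of the pathway genes and for 48.3% of other genes. The 14 genes lowest on FGFR1 KO 4 included the 4 that followed the matrix score, together with Tgfb1, Tgfb3, Tgfbr2, Ltbp1 and Id1. The score itself was lowest on that array, so genes chosen for following it tend to be lowest there by that choice.

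The genes most like Tgfbi over the 8 arrays, ranked by Pearson r among 16473 genes, were Bag4 at 0.978, Ccrl2 at 0.97, Krtap4-9 at 0.974, Fgfr4 at 0.958 and Ppm1f at 0.956. All but Fgfr4 had their spot in the bright part. For Smad5 they were Klf1 (0.976), Itprip (0.973), Lgals3bp (0.964), Lefty1 (0.961) and Rftn1 (0.924), of which Klf1, Itprip and Lefty1 lay in the bright part. None of these 10 genes is in the matrix list.

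Other genes of the pathway, taken from lists of ligands, receptors, regulators and targets outside the 47, had 0 calls at an adjusted p of 0.05 as well. Of 18 other ligands, 12 were tested and 9 were below 0, with 1 lower at an unadjusted p under 0.05, Lefty1, an inhibitor of Nodal signals (-0.72 ± 0.25 SE). The spot of Lefty1 lay in the bright part. Of 10 other receptors and co-receptors, 7 were tested and 5 were below 0, with 1 lower, Nrros, which anchors latent TGF-beta on macrophages and microglia (-1.18 ± 0.51 SE). Nrros read 1.83 on WT 1 and -0.81 to -0.28 on the other 3 WT arrays, against -1.34 to -0.81 on the FGFR1 KO arrays. Its difference was -0.60 without WT 1, and its spot lay in the bright part. Lrrc32, which anchors latent TGF-beta on regulatory T cells and platelets, differed by -0.55 (-0.35 without FGFR1 KO 4) and Eng, the endothelial co-receptor endoglin, by -0.46 (-0.29 without WT 1).

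Of 23 other antagonists and regulators, 20 were tested and 15 were below 0. Those lower at an unadjusted p under 0.05 included Chrdl1, a BMP antagonist (-0.77 ± 0.21 SE), and Fstl1, a secreted glycoprotein of mesenchymal cells that binds BMPs (-0.93 ± 0.34 SE). Fstl1, with its spot outside the bright part, had r of 0.939 with the matrix score, close to that of Tgfbi.

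All 18 other target genes were tested, and 8 of them were below 0. Ccn1, a matricellular protein gene, was lower at an unadjusted p under 0.05 (-1.02 ± 0.29 SE, adjusted p = 0.434 by limma), with r of 0.954 with the score. Its spot lay in the bright part. Cdkn1a, the cell cycle inhibitor p21, was higher (0.50 ± 0.21 SE) with r of -0.319. At an unadjusted p under 0.05, 2 of the 18 were lower and 1 was higher, and their median difference was 0.07.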

How the data were processed

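The members and gene lists were chosen with earlier results of these data known. Agilent Feature Extraction 11.0.1.1 made the authors' scanner files, per the file headers, and the deposited median signals and backgrounds are intensity values without background correction. The deposited ratio column is, per the file headers, a log10 ratio of the processed signals, red on top. Set against these, the deposited series matrix columns are log2 ratios with red on top too (r of 0.985 to 0.991 with the values here and of 0.892 to 0.947 with the scanner's ratio). The 4 FGFR1 KO columns had medians of 0.0155, -0.0152, -0.000673 and 0.00487, and the 4 WT columns of -0.0044, -0.0014, -0.00486 and 0.00217, and no source used here tells their normalization or centring. By the labels' protocol the tumour RNA had the red dye and the human reference the green one, although the label field gives cy3 alone. Over 22367 spots, green varied less within groups (median SD 0.162 in FGFR1 KO and 0.177 in WT) than red (0.281 and 0.348), so green was taken as the reference.

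R 4.3.3 and limma 3.58.1 were used for all fits. The median signals, not mean signals, went into normexp background correction at an offset of 50 and then loess within each array, control and outlier spots having weight 0 and then being left out. Spots of a probe were averaged. Probes whose red signal was well above background on 4 or more arrays, with 3 or more values per group, were tested (39782 of 55681) by two-sided lmFit and eBayes at 0.05, adjusted by Benjamini-Hochberg over the tested probes. The number of arrays limits the precision. Genes were named by RefSeq accession through an NCBI table of GRCm38.p6, used for names and for the RefSeq promoter windows only, and the brightest probe stood for a gene (14 of the 47 had 2 probes). The bright part was set from negative controls alone, as the rectangle around blocks of an 8 by 8 grid where a share of at least 0.2 of them exceeded 50 red units on some array. Differences of single genes were also compared by exact permutation of the arrays, and r and rho with the matrix score by all orders of the arrays, adjusted over all genes.

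Genes given in full were, in each role, the 2 with the smallest p, those with no overlap between groups, and the 5 highest and 3 lowest by r, and of other lists up to 3 with the smallest p, some of which are not reported here. Id2, Tgfb2 and the genes singled out for 1 array were chosen after their values were seen. Replicate numbers did not pair the arrays, since same-numbered arrays correlated in their deviations at -0.0388, 0.0116, 0.109 and -0.106. Alternatives were the scanner's log ratio, red alone, median centring, no filter, a filter on all 8 arrays, no bright part, the series matrix, the mean of probes, arrays left out, trend with robust eBayes, array weights and a replicate block. The fit was tested on simulated arrays first.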

Additional observations from a re-analysis of the deposited data

Results flagged for a closer look

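In 74 tests of 37 pathway genes in 2 groups of 4 arrays, 7 found 1 array far from the other 3 of its group, its gap to the nearest being above Dixon's critical share of the group's range. Chance marks about 1 in 20 such groups. Of the 7, 4 were on WT 2. Bmp6 read 1.07 on WT 2 against -0.14 to -0.08 on the other WT arrays, Bmpr1b 1.79 against 0.10 to 0.37, Id1 -0.33 against -2.04 to -1.84, and Ltbp2 -0.98 against 0.52 to 0.77. Tgfb3 read 0.042 on WT 3 and -0.999 to -0.966 on the remaining WT arrays. In FGFR1 KO tumours, FGFR1 KO 3 had 0.0601 for Ltbp4, with the others at -0.50 to -0.42, and FGFR1 KO 2 had 0.97 for Smad3, with the others at 0.03 to 0.18.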

How the results depend on the processing

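The count of pathway genes at an adjusted p under 0.05 was 0 in each direction under all 20 alternatives. Over all probes tested, 4 passed, 139 without the filter, 11 with array weights, 6 with the series matrix values, and 0 with the scanner's log ratio, red alone, median centring, the filter on all 8 arrays, no bright part, neither WT 1 nor WT 2, trend with robust eBayes or the replicate block, and 0 to 1 with 1 array left out. Of pathway genes, 3 were lower at an unadjusted p under 0.05, 6 without the filter (all 47 then entering, with Inhba, Smad9 and Id1 added), 4 with the series matrix values (Id1 added), 2 without the bright part (Bmp2 and Tgfbi, Ltbp4 having no value) and with the filter on all 8 arrays (Ltbp4 and Tgfbi, Bmp2 having no value), and 3 to 5 with 1 array left out. With median centring the 3 were Ltbp4, Id1 and Tgfbi. Those higher numbered 0, and 0 to 1 with 1 array left out (Tgfb2 without FGFR1 KO 1, Smad3 without WT 2). Genes lying wholly below WT numbered 3, but 1 with the scanner's log ratio (Tgfbi), 2 with red alone, median centring, the filter on all 8 arrays, no bright part and the mean of probes, 6 without WT 1 and WT 2, and 3 to 5 with 1 array left out. Those wholly above numbered 0, but 1 (Smad3) without WT 1 and WT 2, and 0 to 1 with 1 left out. Their median difference was -0.13, and -0.16 to -0.014 with 1 array left out. The 4 genes following the matrix score became 2 with the scanner's log ratio, 1 without the bright part, 2 with the mean of probes, 8 without WT 1 and WT 2, and 3 to 6 with 1 array left out.

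With replicate number as a block, which does not pair these arrays, 4 pathway genes were lower at an unadjusted p under 0.05 and 6 followed the score. Signs turned for Ltbp3 (0.42 without the bright part and with its other probe, 0.11 with the mean of probes), Acvr2a (0.021 with the scanner's log ratio, 0.43 in red alone), Smad5 (0.059 with the scanner's log ratio), Smad2 (0.0027 with the scanner's log ratio, 0.034 in red alone) and Skil (0.13 in red alone, 0.044 with its other probe). The second probes of Tgfbr1 (0.07), Acvr1 (0.17) and Smad4 (-0.21) also had the other sign. With 1 array left out, the differences spanned -0.21 to 0.00024 for Smad2, -0.16 to 0.0084 for Skil, -0.33 to 0.48 for Bmpr1b and -0.029 to 0.58 for Smad3. In all, 19 of the 39 pathway genes turned sign without some array, among them Tgfb3, Bmp4, Ltbp2, Bmpr1a, Acvr1, Smad1, Smad7, Chrd and Fst without FGFR1 KO 4, and Bmp4, Bmp6, Bmpr1a, Acvr2b, Smad1 and Chrd without WT 2. The cause of these changes was not tested. Tgfbi, Ltbp4 and Bmp2 kept their sign under all alternatives that gave them a value. Signal over background limits Bmp2, Bmp5, Bmp6, Bmp7, Bmpr1a, Bmpr1b, Acvr2a and Smad7, each above background on 2 or fewer WT arrays.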
